A study of Mus musculus with 12 samples.

Results

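The antimicrobial and alarmin genes S100a8, S100a9, S100a7a, Defb3, Lcn2 and Saa3 were followed in keratinocytes, which build the epidermis, taken from mice and cultured. They were chosen by name with earlier results of these data known, and each was read by its highest-mean probe set. Each had 1 probe set. These are 6 of the 22180 genes measured. Total RNA of 12 cultures in KGM-2 medium was hybridised to Affymetrix arrays, with 3 arrays in each of 4 groups. The groups were KO paraquat and KO sham (Atg7 f/f K14::Cre +) and wt paraquat and wt sham (Atg7 f/f K14::Cre -). Paraquat, a redox-cycling herbicide that generates superoxide inside cells, was given at 20 µM, and RNA of all groups was taken 48 h after paraquat or sham treatment. All cultures thus carried Atg7 alleles flanked by recombination sites, and the wt cultures lacked the Cre recombinase. K14 is a keratin gene of basal keratinocytes, so cells of other types would keep Atg7. The triplicates are called biological, but no label ties them to animals, and an animal age is not given, so each p-value measures the spread between these cultures.

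Keratinocytes meet microbes first and make their own antimicrobial proteins, at low levels in resting epidermis and at high levels in wounded or inflamed skin. S100a8 and S100a9 encode the subunits of calprotectin, which withholds zinc and manganese from microbes and, once released, acts as an alarmin on TLR4. S100a7a encodes the mouse counterpart of the human psoriasin group, Defb3 a beta-defensin that damages microbial membranes, and Lcn2 the lipocalin that captures bacterial siderophores and so withholds iron. Saa3 encodes a serum amyloid A protein made outside the liver. Interleukin-17, interleukin-36 and interleukin-1 signals, acting through NF-kB with its cofactor Nfkbiz and through C/EBP factors, are known to drive such genes in skin.

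The start regions of the 4 genes that rose together under paraquat are shown because C/EBP and TATA letters were found in most of them. Each runs from 250 bases before to 50 bases after the RefSeq gene start (GRCm38.p6), 5′ to 3′ on the gene's strand, and capitals mark motif matches. They are S100a8 (chr3:90668821-90669120, plus strand), S100a9 (chr3:90695672-90695971, minus strand), S100a7a (chr3:90654052-90654351, plus strand) and Defb3 (chr8:19293111-19293410, plus strand).
S100a8: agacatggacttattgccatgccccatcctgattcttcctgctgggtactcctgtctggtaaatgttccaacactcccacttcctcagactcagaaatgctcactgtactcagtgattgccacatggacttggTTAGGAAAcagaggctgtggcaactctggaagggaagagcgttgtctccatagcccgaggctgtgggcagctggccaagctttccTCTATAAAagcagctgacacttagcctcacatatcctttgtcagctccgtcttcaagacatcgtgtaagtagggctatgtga
S100a9: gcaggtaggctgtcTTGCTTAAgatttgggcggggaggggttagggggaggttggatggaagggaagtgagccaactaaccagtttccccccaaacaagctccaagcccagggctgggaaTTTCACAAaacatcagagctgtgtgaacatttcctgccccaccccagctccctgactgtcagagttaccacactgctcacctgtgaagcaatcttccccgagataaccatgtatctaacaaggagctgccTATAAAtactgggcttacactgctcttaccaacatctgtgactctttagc
S100a7a: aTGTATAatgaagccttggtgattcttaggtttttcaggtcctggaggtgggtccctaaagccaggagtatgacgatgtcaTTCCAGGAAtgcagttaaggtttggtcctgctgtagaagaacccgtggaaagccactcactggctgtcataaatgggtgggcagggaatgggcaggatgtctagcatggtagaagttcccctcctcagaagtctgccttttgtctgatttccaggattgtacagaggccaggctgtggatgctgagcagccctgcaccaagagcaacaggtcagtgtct
Defb3: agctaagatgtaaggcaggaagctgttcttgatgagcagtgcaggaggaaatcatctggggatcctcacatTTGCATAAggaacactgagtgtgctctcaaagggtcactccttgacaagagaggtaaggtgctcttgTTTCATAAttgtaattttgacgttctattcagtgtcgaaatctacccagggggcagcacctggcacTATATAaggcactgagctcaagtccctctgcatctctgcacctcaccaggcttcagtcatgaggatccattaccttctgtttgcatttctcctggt
The search, on both strands, used TATANA for the TATA box, TGANTCA for AP-1, TTNNGNAA for C/EBP, TTCNNNGAA for STAT, TGACNNNGC for the antioxidant response element, and a consensus for NF-kB. C/EBP letters stood in 5 of the 6 genes, against 40.7% of 32851 start regions in the table. S100a7a had none. TATA letters stood in 5 of 6, against 24.7% of all regions, and Lcn2 had none. In S100a8 the matches lay 32 to 25 bases before the start and overlapped each other. In S100a9 the TATA letters lay at bases 1 to 6 of the annotated transcript, and in Defb3 46 to 41 bases before the start. The STAT letters were found in S100a7a, 169 to 161 bases before the start, against 8.3% of all regions. The AP-1, NF-kB and antioxidant letters were in 0 of the 6 windows, against 7.81%, 4.51% and 12.4% of all regions. A match describes letters in this window and is no evidence of binding.

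The arrays were first checked against their labels. Atg7, whose product is the E1-like enzyme of autophagy, had signals of 96 to 148 in the 6 KO arrays and 286 to 457 in the 6 wt arrays, so the genotypes did not overlap. The keratinocyte markers measured were all above 45, the highest array median, in every array, with Krt14 at 8933 to 11102. The first principal component (64.4% of the variance) separated sham from paraquat arrays. On it wt sham 2 was at -25.8, nearer to the paraquat arrays than wt sham 1 and 3 at -36 and -35.3. KO paraquat 3 was at 23.5, nearer to the sham arrays than KO paraquat 1 and 2 at 32.4 and 29.6. On the second component wt sham 1, 3 and 2 were spread out at -11.4, -20.4 and -31.4. The third set KO paraquat 3 apart at -19.7, whereas KO paraquat 1 and 2 were at -5.52 and -6.34. These 2 arrays also carried extremes of the genes described here: KO paraquat 3 was the lowest of its group in 6 of 6 genes, and wt sham 2 the highest of its group in 6 of 6. KO sham 3 was the lowest of its group in S100a8, S100a9, Lcn2 and Saa3.

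**Figure D1:**
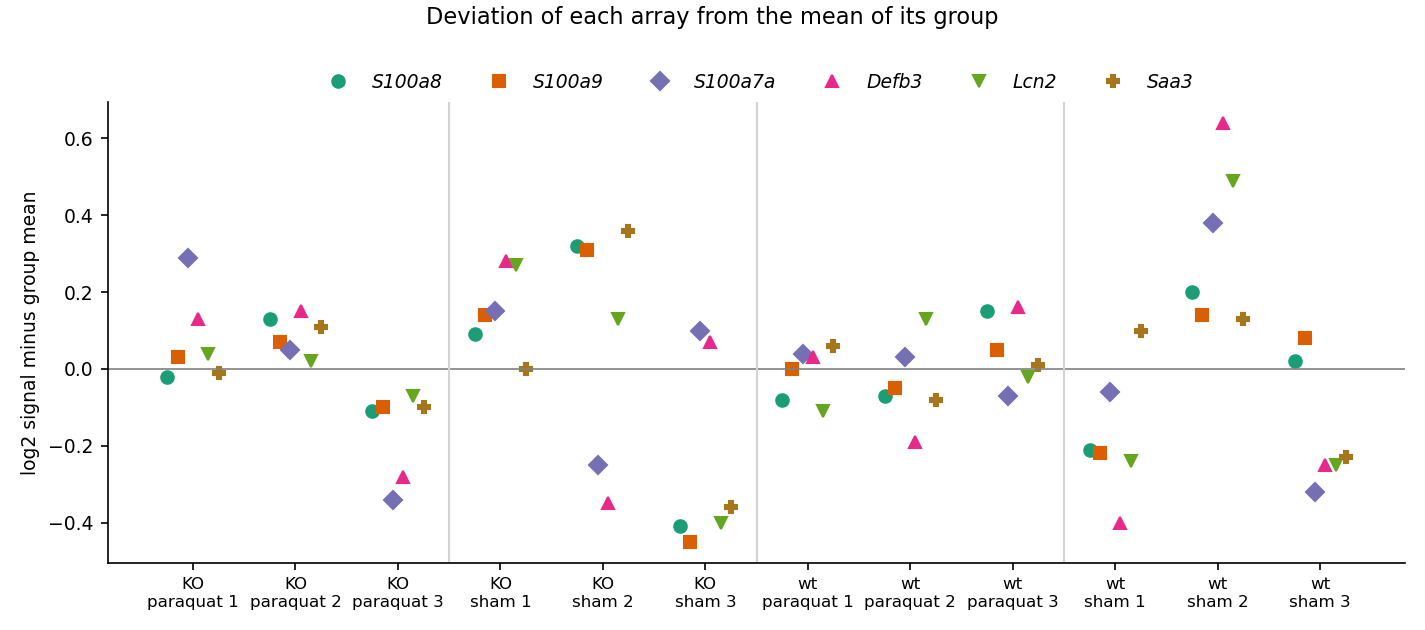
Each point is the log2 signal of 1 gene in 1 array minus the mean of its group of 3, for 12 arrays and 6 genes. All 6 genes lie below 0 in KO paraquat 3 and above 0 in wt sham 2, and S100a8, S100a9, Lcn2 and Saa3 lie together below 0 in KO sham 3.

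The response to paraquat was compared within each genotype. S100a8, S100a9, S100a7a and Defb3 rose in KO and in wt cultures, by 3.37-fold to 15.8-fold in KO and 4.61-fold to 22.1-fold in wt, while Lcn2 and Saa3 did not pass the test in KO or in wt. Thus 4 of 6 genes rose in KO and 4 of 6 in wt, against 14.5% of all genes called higher in KO and 14.9% in wt. Because the 6 genes were chosen with earlier results of these data known, the shares in this paragraph describe them and are no independent test. The 4 rises were each past 2-fold, which 2.35% of all genes reached with a call in KO and 3.08% in wt. The median log2 change of the 6 genes was 1.92 in KO and 2.48 in wt, against 0.01 over all genes in both. With every paraquat array above every sham array were 5 of 6 genes in KO, against 20.0% of all genes, and 4 of 6 in wt, against 19.2%. A call is an adjusted p under 0.05 in limma over all 22180 genes. In these bulk cultures a changed number of expressing cells and a changed amount of RNA per cell cannot be told apart.

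S100a8, the smaller calprotectin subunit, had signals of 4639, 5151 and 4375 in KO paraquat, against 1489, 1750 and 1052 in KO sham. In wt it had 4723, 4741 and 5553 under paraquat, against 936, 1241 and 1095 in sham. Signals are the authors' RMA values on a linear scale. All paraquat arrays lay above all sham arrays in both genotypes. The rise was 3.37-fold in KO (log2 1.75 with an SE of 0.16 from 3 arrays in each group, adjusted p = 4.15e-06) and 4.61-fold in wt (log2 2.20 ± 0.16, adjusted p = 2.98e-07).

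S100a9, its partner subunit, had signals of 3657, 3761 and 3340 in KO paraquat, against 924, 1045 and 617 in KO sham. In wt the signals were 3816, 3680 and 3963 under paraquat, against 484, 621 and 597 in sham. The paraquat arrays of both genotypes lay within a narrow band, well above every sham array. The rise was 4.26-fold in KO (log2 2.09 ± 0.16, adjusted p = 9.07e-07) and 6.77-fold in wt (log2 2.76 ± 0.16, adjusted p = 3.74e-08). Within each array, the log2 of S100a9 over S100a8 averaged -0.40 ± 0.06 in KO paraquat and -0.73 ± 0.04 in KO sham, and -0.39 ± 0.09 in wt paraquat and -0.94 ± 0.06 in wt sham (SD, n = 3 arrays). The groups did not overlap between treatments, so the signals of the subunit genes did not change by the same factor. Since the probe sets differ, the ratio itself gives no ratio of transcripts, and whether the RNAs changed by unequal factors was not tested.

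S100a7a is the psoriasin-type gene. Its signals were 3215, 2727 and 2085 in KO paraquat, against 185, 141 and 179 in KO sham. In wt they were 3534, 3517 and 3272 under paraquat, against 149, 202 and 125 in sham. The sham arrays of the genotypes overlapped, far below every paraquat array. The rise was 15.8-fold in KO (log2 3.98 ± 0.18, adjusted p = 2.39e-08) and 22.1-fold in wt (log2 4.47 ± 0.18, adjusted p = 2.80e-09). By size it ranked 10 in KO and 12 in wt among the rises of 22180 genes.

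Defb3, the beta-defensin gene, had signals of 619, 627 and 464 in KO paraquat, against 45, 29 and 39 in KO sham. In wt it had 682, 587 and 750 under paraquat, against 37, 76 and 41 in sham. Of the 6 sham values 5 lay at or below the highest array median, so the sham level was not shown to be above background. The signal rose 15.2-fold in KO (log2 3.93 ± 0.24, adjusted p = 1.63e-07) and 13.8-fold in wt (log2 3.78 ± 0.24, adjusted p = 7.90e-08). Against such a sham level these are ratios of signals, and the fold of the RNA, which could be larger, was not measured. The smallest rises over the alternatives came with 16 added to each signal before the log2, at log2 3.45 in KO and 3.39 in wt.

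Lcn2 encodes the siderophore-binding lipocalin. Its signals were 400, 395 and 371 in KO paraquat, against 340, 308 and 213 in KO sham. In wt they were 227, 268 and 241 under paraquat, against 292, 482 and 290 in sham. Every KO paraquat array lay above the KO sham arrays, and every wt paraquat array lay below the wt sham arrays, an arrangement that 0.586% of all genes had. Being lower in all wt paraquat arrays, taken alone, was seen in 18.3% of genes. The log2 change was 0.46 ± 0.19 in KO (adjusted p = 0.0970) and -0.49 ± 0.19 in wt (adjusted p = 0.0753), and neither passed. The wt change passed after the filter on dim genes (adjusted p = 0.0439) and with the replicate block (adjusted p = 0.0430). Without KO sham 3 the KO change was log2 0.26 (adjusted p = 0.363) and the wt change passed at log2 -0.49 (adjusted p = 0.0415). Without wt sham 2 the wt change was log2 -0.25 (adjusted p = 0.304) and the KO change passed at log2 0.46 (adjusted p = 0.0301).

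Saa3 was dim, with signals of 69, 75 and 65 in KO paraquat, against 81, 104 and 63 in KO sham. In wt the signals were 54, 49 and 52 under paraquat, against 49, 50 and 39 in sham. Paraquat and sham arrays overlapped in both genotypes. The log2 change was -0.22 ± 0.15 in KO (95% interval -0.55 to 0.11, adjusted p = 0.347) and 0.18 ± 0.15 in wt (-0.15 to 0.51, adjusted p = 0.467). Without KO sham 3 the KO change was log2 -0.40 with adjusted p = 0.0493. Its values lay between the 46.2 and 69.3 percentiles of the probe sets of their array, so a level above background was not shown.

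**Figure D2:**
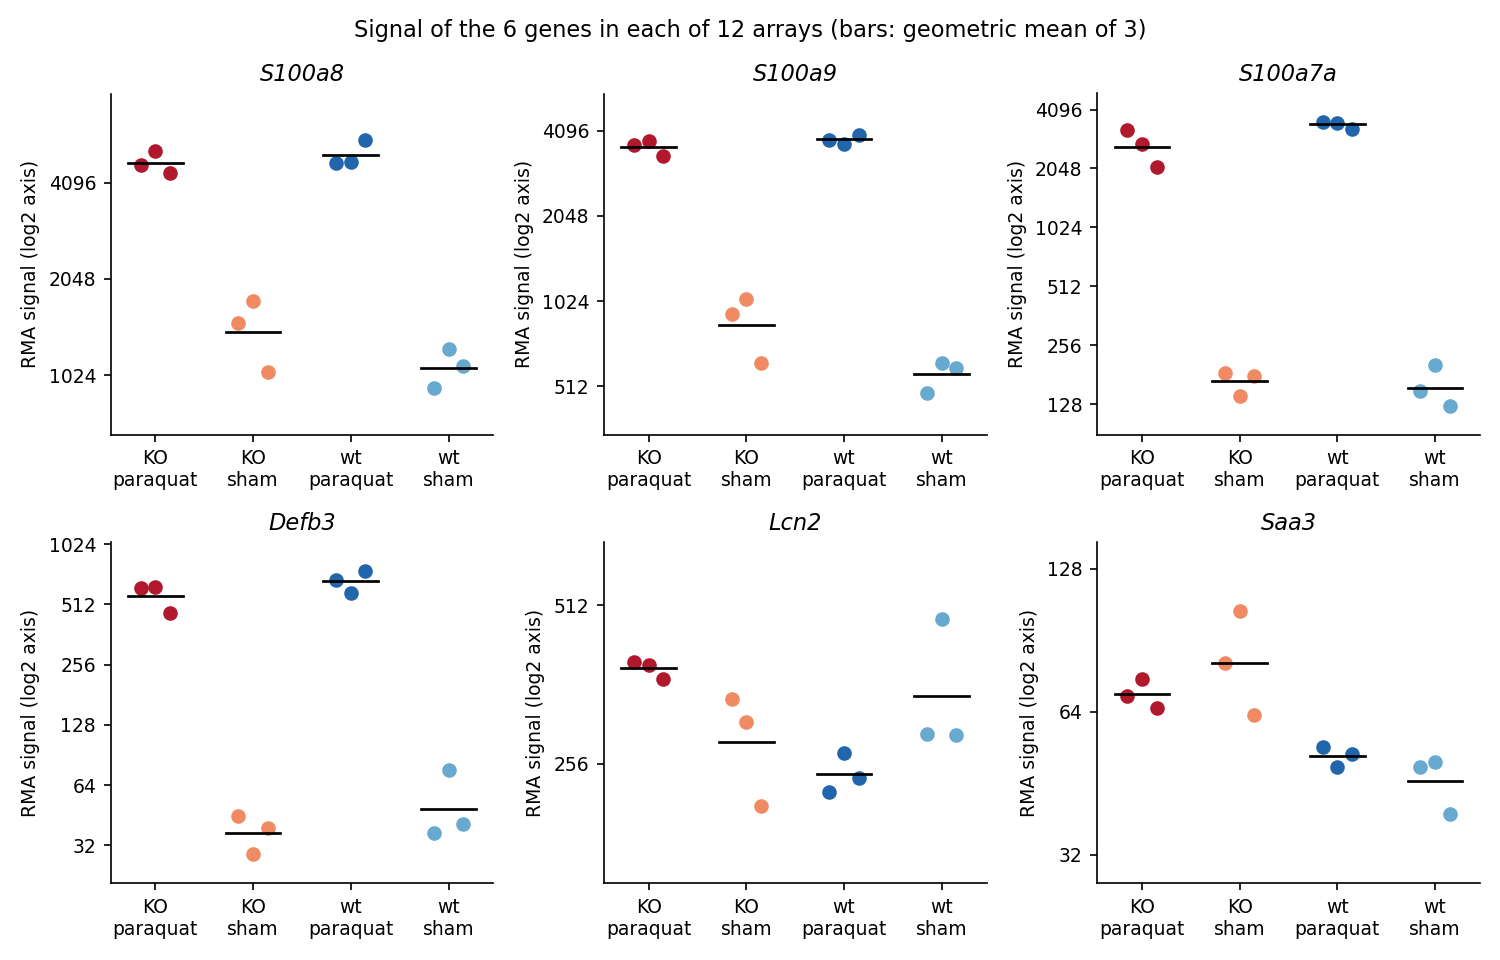
RMA signal (log2 axis) of each gene in the 12 arrays, by group, with a bar at the geometric mean of 3 arrays. Paraquat arrays lie above sham arrays in S100a8, S100a9, S100a7a and Defb3 in both genotypes, while in Lcn2 paraquat lies above sham in KO and below it in wt.

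The genotypes were next compared without paraquat, in the sham cultures. KO and wt cultures differed in Cre as well as in Atg7, and no group carried Cre with Atg7 intact. In every comparison of genotypes, loss of Atg7 and presence of Cre thus cannot be told apart. Saa3 and S100a9 were higher in KO, so 2 of 6 genes were called higher, against 4.58% of all genes, and 0 were called lower, against 5.67%. Saa3 had 81, 104 and 63 in KO sham against 49, 50 and 39 in wt sham, a 1.77-fold difference in signal (log2 0.82 ± 0.15, adjusted p = 0.00393). The wt sham signals lay around the array medians, so this ratio is taken over a level not shown to be above background. It was the 1 gene of the 6 that was higher in all KO arrays, as 10.1% of all genes were. S100a9 was 1.49-fold higher (log2 0.58 ± 0.16, adjusted p = 0.0362), although KO sham 3 at 617 lay below wt sham 2 at 621. That call was lost in 11 of 21 alternatives, among them the omission of wt sham 1, 2 or 3 (adjusted p = 0.118, 0.0573 and 0.0690), of KO sham 1 or 2 (0.118 and 0.150), of wt paraquat 1, 2 or 3 (0.0505, 0.0509 and 0.0501) and of KO paraquat 1 (0.0505). Without wt sham 2 and KO paraquat 3 together its adjusted p was 0.0738. From the 6 sham arrays alone neither gene passed, with adjusted p = 0.167 for S100a9 and 0.0564 for Saa3.

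The other 4 genes did not pass between the sham groups. S100a8 differed by log2 0.37 ± 0.16 (95% interval 0.02 to 0.72, adjusted p = 0.195). Without KO sham 3 the S100a8 difference was log2 0.58 and passed (adjusted p = 0.0219). S100a7a differed by log2 0.10 (interval -0.28 to 0.49), Defb3 by -0.39 (-0.91 to 0.12) and Lcn2 by -0.29 (-0.71 to 0.13). The intervals of S100a7a, Defb3 and Lcn2 include 0, and that of S100a8 does not.

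Under paraquat the genotypes were compared in the same way. In limma 0 of 6 genes passed, against 0.55% of all genes. Over all 22180 genes 2448 had an unadjusted p under 0.05, and of the 6 genes 2 did. The 2 were Lcn2 and Saa3, each higher in every KO array, as 7.94% of all genes were. Lcn2 had 371 to 400 in KO paraquat against 227 to 268 in wt paraquat, a log2 difference of 0.67 ± 0.19 (adjusted p = 0.179). Saa3 had 65 to 75 in KO paraquat against 49 to 54 in wt paraquat (log2 0.43 ± 0.15, adjusted p = 0.299). Lcn2 ranked 31 among 22180 genes by the size of its excess in KO. Saa3 is given as signals near background, with no rank.

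For the genes that paraquat raised, no difference between genotypes under paraquat passed. The log2 difference, KO paraquat minus wt paraquat, had a 95% interval of -0.43 to 0.27 for S100a8, -0.44 to 0.25 for S100a9 and -0.76 to 0.27 for Defb3. For S100a7a the KO arrays (2085 to 3215) all lay below the wt arrays (3272 to 3534), as for 9.07% of all genes, with a log2 difference of -0.38 ± 0.18 (interval -0.77 to 0.00, adjusted p = 0.456). KO paraquat 3, which stands apart from its group, was the lowest of these, and without it the difference was log2 -0.22 (adjusted p = 0.831). These intervals bound the differences that the arrays leave possible.

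The difference of the responses, KO response minus wt response, asks whether the paraquat response differed between the genotypes. In limma 0 of 6 genes passed, against 2.29% of all genes. Over all 22180 genes 3376 had an unadjusted p under 0.05, and of the 6 genes 2 did. The largest was in Lcn2, at log2 0.96 ± 0.27 (95% interval 0.37 to 1.55, adjusted p = 0.0938). S100a9 had -0.67 ± 0.23 (interval -1.16 to -0.18, adjusted p = 0.160), and without KO sham 3 it passed, at log2 -0.89 (adjusted p = 0.0166). S100a8 and S100a7a had -0.45 and -0.49, with intervals of -0.95 to 0.04 and -1.04 to 0.06. For both calprotectin genes the mean of KO sham lay above that of wt sham and the paraquat arrays overlapped between genotypes, and the same sham arrays enter the difference of the responses. Defb3 had 0.15 ± 0.34, of no settled sign.

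**Figure D3:**
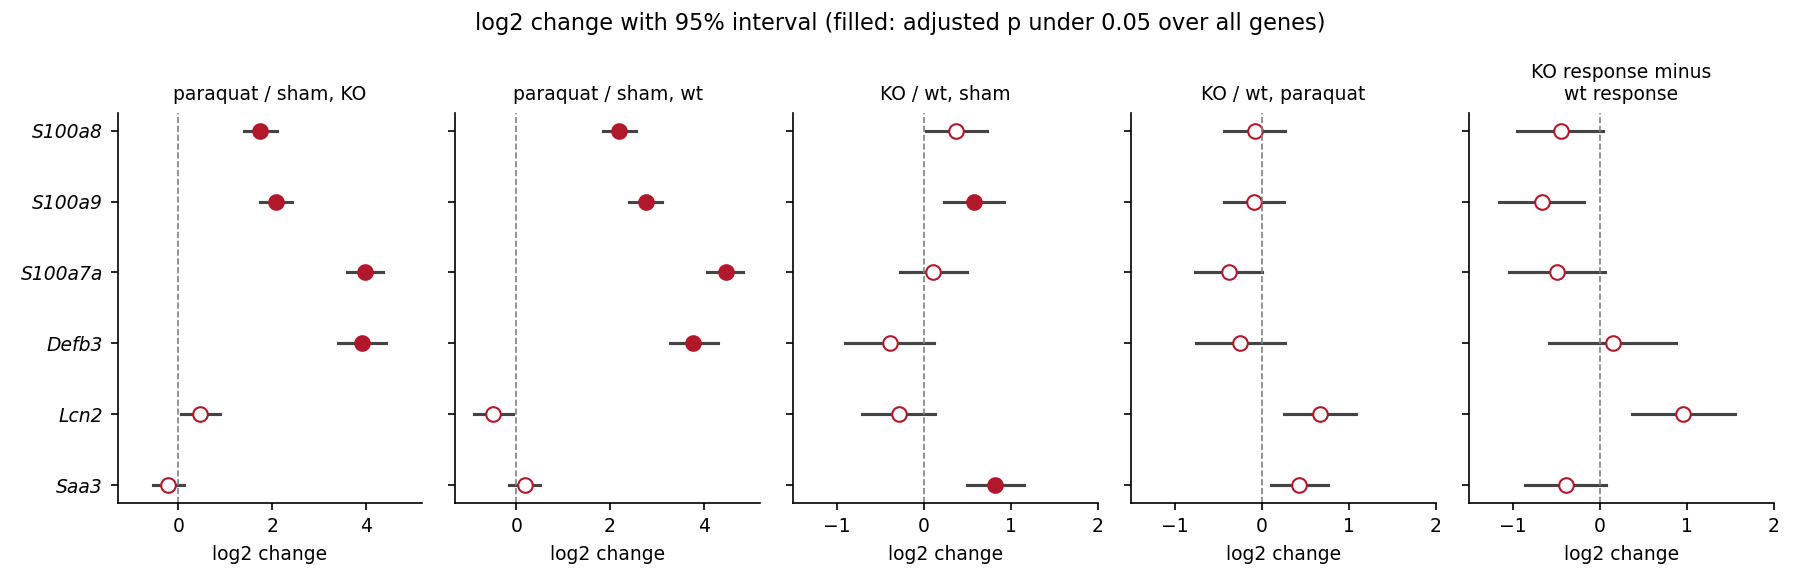
log2 change of each gene with its 95% interval in the 5 comparisons, filled where the adjusted p over all genes is under 0.05. The 4 upper genes are filled in both paraquat comparisons, S100a9 and Saa3 in KO over wt in sham, and none in the 2 right-hand panels, where Lcn2 has the largest difference (log2 0.96).

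The order of the group levels differed among the genes. For S100a8 and S100a9 it was wt paraquat, KO paraquat, KO sham and wt sham from high to low, with overlap between the paraquat groups and between the sham groups. S100a7a had the same order, with overlap between the sham groups. Defb3 ran wt paraquat, KO paraquat, wt sham and KO sham. Lcn2 ran KO paraquat, wt sham, KO sham and wt paraquat, and of neighbours KO paraquat and wt sham overlapped, as did wt sham and KO sham. KO sham and wt paraquat overlapped through KO sham 3 at 213. Saa3 ran KO sham, KO paraquat, wt paraquat and wt sham, and its genotypes did not overlap.

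Profiles over the 12 arrays were compared next. After centring each gene on its mean over the 12 arrays, S100a8 and S100a9 differed by a root mean square of 0.241 on the log2 scale, S100a7a and Defb3 by 0.311, and Lcn2 and Saa3 by 0.448, and the other pairs by 0.857 to 2.17. The distance is not scaled to a gene's range, and Lcn2 and Saa3, which both varied little, had paraquat changes of opposite sign in each genotype. Of 3066 genes with a range of at least 1 on the log2 scale, those nearest to S100a8 were the adenosine deaminase gene Ada (0.176), the lactoferrin gene Ltf (0.195) and the phosphatase gene Inpp5d (0.207). Nearest to S100a9 were Nkx2-9 (0.198), Ankrd22 (0.218) and Il1f6, which encodes interleukin-36 alpha (0.219). Nearest to S100a7a were the glutamine synthetase gene Glul (0.244), the cornified envelope gene Sprr2e (0.279) and Tfcp2l1 (0.289). Nearest to Defb3 were Lce3c (0.224), the epidermal lipid gene Pnpla1 (0.230) and Tfcp2l1 (0.247). Lcn2 lay nearest to Obox5, Nqo2 and Dgkd (0.228 to 0.237), and Saa3 to Gnai1, Fkbp14 and H1f1 (0.197 to 0.205). Obox5 and H1f1 were below 27 in every array, below every array median.

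Position on the chromosome was set beside the response. S100a7a, S100a8 and S100a9 are direct neighbours on chromosome 3, with S100a6 before them and the peptidoglycan recognition gene Pglyrp4 after them. Pglyrp4 rose too, by log2 1.95 ± 0.19 in KO and 1.80 ± 0.19 in wt, whereas S100a6 fell by 0.46 in KO and by 0.36 in wt on the log2 scale. S100a5 and S100a7l2 further out had changes between log2 -0.03 and 0.27 and did not pass, and S100a4 had -0.19 in KO and rose by 0.64 in wt. Around Defb3 on chromosome 8, Defb7 rose by 0.45 in KO and 0.32 in wt and Defb8 by 0.48 in KO, at signals of 9 to 51, and Defb5, Defb46 and Defb6 did not pass. Next to Saa3 on chromosome 7, Saa4 rose by log2 1.83 ± 0.19 in KO (85, 67 and 105, against 24, 28 and 20 in sham) and by 1.42 ± 0.19 in wt (36, 48 and 61, against 18, 16 and 19), while Saa2, at 10 to 13, did not pass. The Saa4 sham signals lay below every array median, so these changes are also ratios of signals over a level not shown to be above background. Of the 6 measured neighbours of Lcn2 on chromosome 2, 1110008P14Rik (0.66 in KO and 0.52 in wt), Naif1 (0.56 in KO and 0.61 in wt) and Slc25a25 (0.36 in KO and 0.48 in wt) rose in both genotypes and Dnm1 rose in KO (0.44), on the log2 scale. Ciz1 and Ptges2 did not pass. Over all genes 14.5% were called higher and 12.6% lower in KO, and 14.9% and 14.3% in wt. Whether position on the chromosome played a part was not tested.

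**Figure D4:**
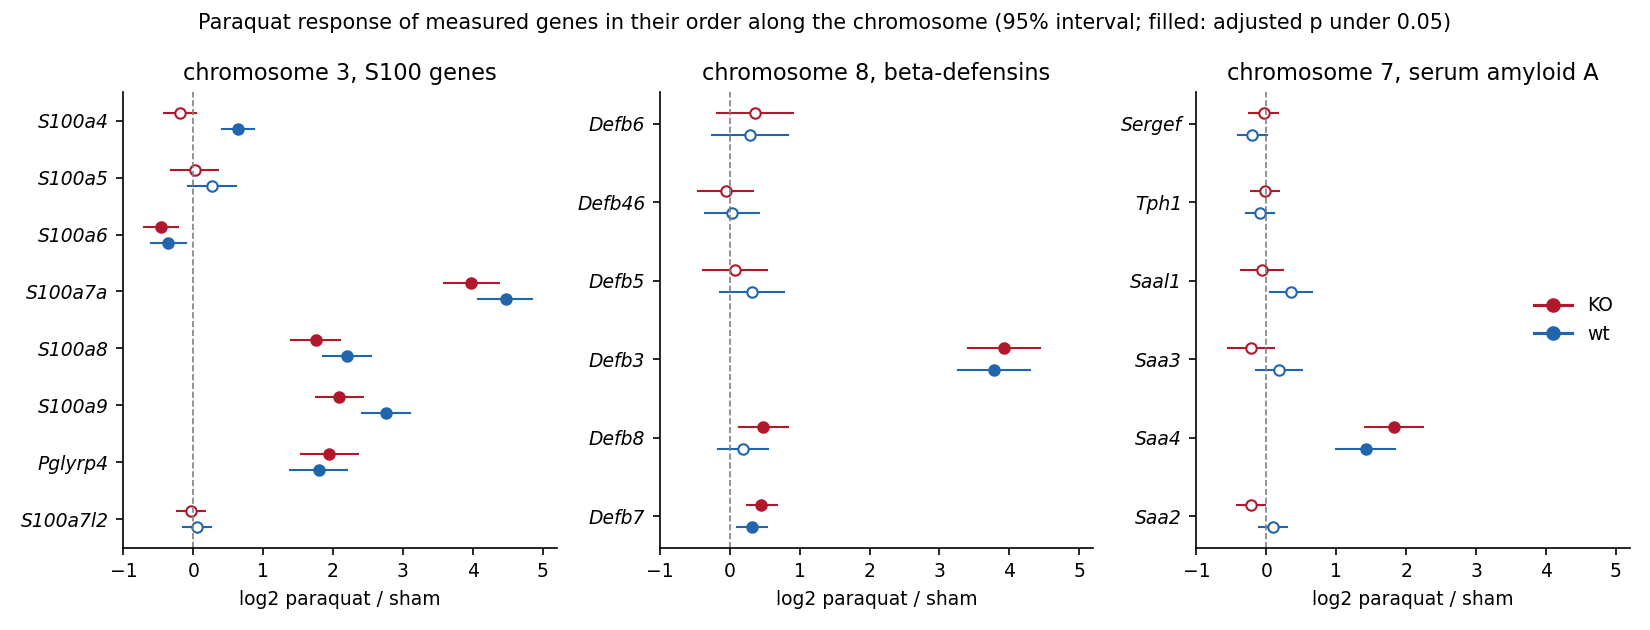
log2 paraquat over sham with 95% interval for measured genes in chromosome order, KO above wt, filled where the adjusted p is under 0.05. S100a7a, S100a8, S100a9 and Pglyrp4 stand together to the right of 0, Defb3 stands farther from 0 than its neighbours, at log2 3.93 in KO and 3.78 in wt, and Saa4 is filled to the right of 0 while Saa3 lies at -0.22 in KO and 0.18 in wt, unfilled.

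Other genes of the same defence were counted from lists. Of 22 other antimicrobial genes, 5 rose and 3 fell in KO, and 5 rose and 1 fell in wt, against 14.5% higher and 12.6% lower over all genes in KO and 14.9% and 14.3% in wt. The rises were in Ltf, Defb14, Slpi, Pglyrp4 and Defb4 in both genotypes. Ltf, which binds iron, had 155, 157 and 122 in KO paraquat against 39, 41 and 29 in KO sham, and 120, 117 and 138 in wt paraquat against 31, 29 and 38 in wt sham (log2 2.00 ± 0.15 in KO and 1.94 ± 0.15 in wt). Its sham signals, too, lay below every array median. Defb14, another beta-defensin, rose by log2 2.08 in KO and 2.27 in wt, and the protease inhibitor gene Slpi by 1.42 in KO and 1.51 in wt. Between the sham groups Defb1 was higher in KO (log2 0.89, adjusted p = 0.00244), and Defb4 (-0.89, adjusted p = 0.0120) and Defb14 (-0.67, adjusted p = 0.0313) were lower. That was 1 of 22 higher and 2 of 22 lower, against 4.58% and 5.67% of all genes. Defb1 is named here after its values were seen, as is Defb4. Under paraquat the adjusted p of Defb14 was 0.0562 (log2 -0.86). The median change of the list was log2 0.02 in KO and 0.13 in wt, and 14 of 22 in KO and 16 of 22 in wt did not pass.

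Of 14 other S100 genes, 4 rose and 1 fell in KO, and 5 rose and 1 fell in wt, with median changes of log2 0.04 and 0.23. Over all genes 14.5% rose and 12.6% fell in KO and 14.9% and 14.3% in wt, shares that apply to each list of this paragraph. S100z rose by log2 1.36 in KO and 0.82 in wt, S100a14 by 0.80 in KO and 0.64 in wt, and S100a3 by 0.52 in KO and 1.03 in wt. S100a4, also called metastasin, rose by log2 0.64 in wt, had -0.19 in KO, and its responses differed (log2 -0.83 ± 0.15, adjusted p = 0.0134). The signals of S100a4 in wt sham (49, 42 and 42) and of S100z in KO sham (48, 35 and 35) lay around or below the array medians. A level above background was not shown there. Of 11 other acute phase genes 2 rose and 1 fell in KO and 2 rose in wt, with Saa4 and the heme carrier gene Hpx (0.37 in KO and 0.35 in wt) higher and Orm1 lower in KO (-0.62). Of 10 other alarmins 1 rose and 4 fell in KO, and 3 rose and 4 fell in wt. Il1a, the interleukin-1 alpha gene, rose by 1.44 in KO and 1.53 in wt, while the nuclear alarmin genes Il33 (-1.45 in KO and -1.15 in wt) and Hmgb1 (-0.89 and -0.77) fell. Hmgb2 fell in KO (-0.71) and had 0.01 in wt, and the difference of its responses had an adjusted p of 0.0583.

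Of 13 genes for receptors of these proteins, 5 rose and 1 fell in KO and 3 rose and 1 fell in wt. The shares over all genes were 14.5% higher and 12.6% lower in KO, and 14.9% and 14.3% in wt. Cd14, a coreceptor of TLR4, had 276, 203 and 222 in KO paraquat against 60, 50 and 60 in KO sham, and 204, 234 and 250 in wt paraquat against 53, 60 and 47 in wt sham. It rose by log2 2.04 ± 0.13 in KO and 2.11 ± 0.13 in wt, and the adaptor gene Myd88 rose by 0.96 in KO and 1.21 in wt. Tlr2 fell by 1.77 in KO and by 1.44 in wt on the log2 scale. The high-density lipoprotein receptor gene Scarb1 rose by 0.35 in KO and had 0.04 in wt.

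Of 24 upstream cytokine and receptor genes, 3 rose and 4 fell in KO, and 7 rose and 4 fell in wt. The shares of all genes called higher and lower were 14.5% and 12.6% in KO, and 14.9% and 14.3% in wt. The interleukin-36 genes Il1f8, Il1f9 and Il1f6 rose in both genotypes, by log2 3.09, 2.06 and 2.06 in KO and 3.42, 3.20 and 2.71 in wt. Il1f8 had 33, 35 and 29 in KO sham and 43, 53 and 46 in wt sham, below or around the array medians. Its changes are thus ratios of signals over a level not shown to be above background. Il1f9, which encodes interleukin-36 gamma, had 1180, 1209 and 890 in KO paraquat against 1837, 1896 and 1727 in wt paraquat, with no overlap (log2 -0.75 ± 0.14, adjusted p = 0.0394). The difference of its responses passed, at log2 -1.14 ± 0.20 (adjusted p = 0.0116), and Il1f8 was also lower in KO under paraquat (log2 -0.88, adjusted p = 0.0404). The interleukin-17 receptor gene Il17rc fell by 0.54 in KO and by 0.95 in wt on the log2 scale. Of 21 transcription factor and adaptor genes, 11 rose and 3 fell in KO, and 13 rose and 5 fell in wt, with median changes of log2 0.26 in KO and 0.34 in wt. Over all genes 14.5% were called higher and 12.6% lower in KO, and 14.9% and 14.3% in wt. The rises included Grhl3 (1.76 in KO and 2.23 in wt), Cebpa (1.42 and 1.35) and Junb (1.11 and 0.78), and Hif1a fell (-0.62 and -1.11). Comparisons that share arrays, such as KO against wt in sham and the difference of responses, are not independent of each other.

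**Figure D5:**
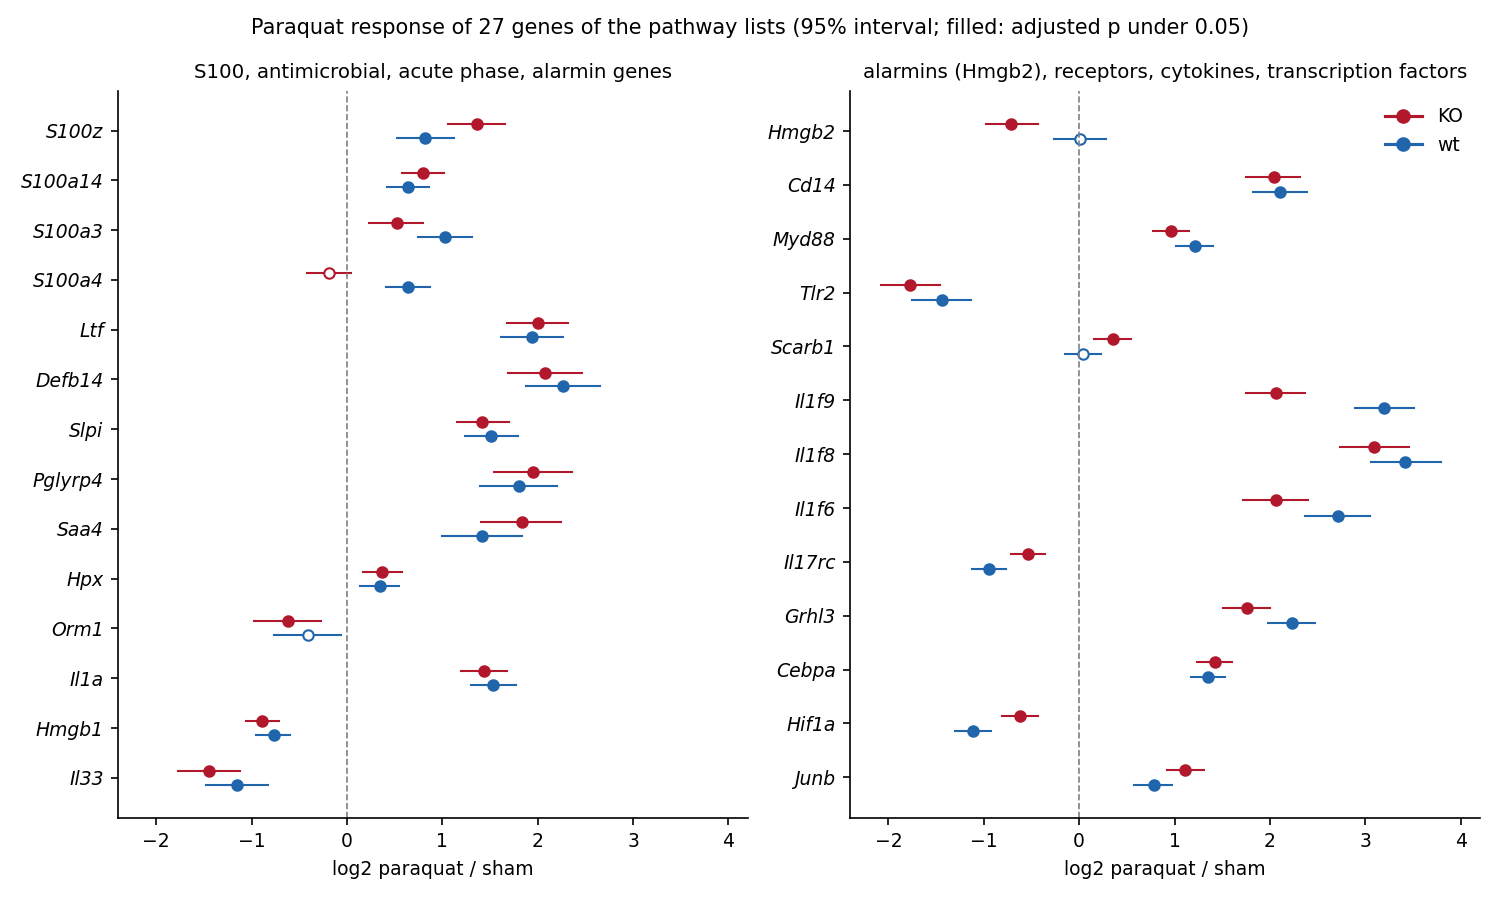
log2 paraquat over sham with 95% interval for 27 genes of the lists, KO above wt, filled where the adjusted p is under 0.05. Most points of a gene lie close in KO and wt, and the widest gap between genotypes is in Il1f9 (2.06 in KO and 3.20 in wt).

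Neutrophils and macrophages carry much S100a8, S100a9 and Lcn2, so their markers were set beside these results. The neutrophil markers Ly6g (13 to 22), Elane (28 to 40), Ngp (19 to 29), Camp (16 to 26) and Mpo (32 to 45) and the leukocyte marker Ptprc (13 to 21) stayed at or below the highest array median in all 12 arrays, and none of these 6 rose past the test under paraquat. Csf3r, Cxcr2 and Prtn3 of the neutrophil list were above that median in all arrays. The summed signal of 15 neutrophil markers was 766 to 776 in KO paraquat against 483 to 547 in KO sham, and 695 to 756 in wt paraquat against 544 to 571 in wt sham. In that list Ltf, Stfa2l1 and Itgam rose in both genotypes, and Mmp9 fell in wt (43, 34 and 38, against 98, 75 and 120 in sham). The summed rise came mostly through Ltf and Stfa2l1. Stfa2l1 had 148 to 162 in KO paraquat against 17 to 29 in KO sham, and 103 to 110 in wt paraquat against 8 to 18 in wt sham. Itgam stayed at 24 to 43, below the highest array median. Ltf also stands in the antimicrobial list. The summed signal of 16 markers of macrophages and other leukocytes was 1652 to 1905 in KO paraquat against 994 to 1100 in KO sham, and 2243 to 2301 in wt paraquat against 994 to 1009 in wt sham, mostly through the lysosomal gene Cd68 (1214 to 1482 in KO paraquat and 1778 to 1870 in wt paraquat). Of the 16 markers 3 rose in KO (Cd68, Laptm5 and Cd163) and 3 in wt (Cd68, Csf1r and Adgre1), and Lyz2 fell in KO. Those other than Cd68 had signals of at most 46. Shares of all genes called higher were 14.5% in KO and 14.9% in wt. Among 8 melanocyte markers 4 rose in KO and 4 in wt, such as Mlana (2.36 in KO and 2.57 in wt), with sums of 921 to 966 in KO paraquat against 481 to 532 in KO sham and 930 to 1013 in wt paraquat against 427 to 505 in wt sham. Of the endothelial markers 2 of 7 rose in KO and 3 of 7 in wt, and of the fibroblast markers 1 of 12 rose and 2 of 12 fell in each genotype. Of 6 Langerhans cell markers 1 fell in KO and 2 fell in wt. Of the 11 keratinocyte markers 5 fell in KO and 6 in wt, against 12.6% and 14.3% of all genes lower, and 0 rose. The differentiation keratin gene Krt1 averaged 114 in KO paraquat against 352 in KO sham and 173 in wt paraquat against 448 in wt sham (log2 -1.62 ± 0.15 in KO and -1.40 ± 0.15 in wt), and the basal integrin gene Itgb4 changed by -0.67 ± 0.13 in KO and -1.20 ± 0.13 in wt. The part of these shifts in the 6 genes was not tested.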

How the data were processed

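Total RNA of 12 keratinocyte cultures was labelled with a whole-transcript kit and read on 1 array each. Per the submitters' processing notes, the authors made 1 intensity per probe set with RMA (background correction, quantile normalization, probe summary) in Affymetrix Expression Console 1.3.1.187. The deposited intensities were whole numbers from 3 to 17695 with array medians of 42 to 45, read as linear RMA values, and their log2 was taken. The genome build and any filter on probe sets were not stated in the labels. The number of arrays limits precision.

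Of 41345 probe sets, 23521 carried 1 symbol, 1814 several and 16010 none, and 23328 identifiers matched a gene table (GRCm38.p6). The highest-mean probe set stood for a gene. The 6 genes and the lists (115 of 123 pathway entries and 75 of 78 marker entries measured) were chosen with earlier results of these data known. Named from each list were up to 4 genes past the threshold by p, 27 in all. Genes were fitted with limma 3.58.1 in R 4.3.3 (lmFit, eBayes, 1 mean per group, 2-sided, Benjamini-Hochberg over 22180 genes, threshold 0.05). On simulated arrays of 22180 genes, 100 genes brighter than the median gene were changed 2-fold for each comparison. Of these, 95 were recovered for paraquat in KO and 97 in wt. For KO against wt 92 were recovered in sham and 95 under paraquat, and for the difference of responses 85. These counts do not describe smaller changes, such as the genotype differences of Lcn2 under paraquat (1.59-fold) and S100a9 in sham (1.49-fold). Dim genes such as Saa3 are not described by them either. Alternatives were rescaling, a filter on dim genes, 16 added before the log2, probe set means, a variance trend, fewer arrays and a replicate block. Start regions came from RefSeq, with all 6 genes matched.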

Additional observations from a re-analysis of the deposited data

Results flagged for a closer look

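Lcn2 stood out because every paraquat array lay above every sham array in KO and below every sham array in wt, as for no other gene of the 6. The KO response minus the wt response was 0.96 on the log2 scale (SE 0.27, 3 arrays per group). The test of this difference in limma gave adjusted p = 0.0938 over all genes, so it did not pass, and over the alternatives the adjusted p ranged between 0.0489 and 0.191. The KO paraquat signals were 371 to 400 against 213 to 340 in KO sham, and the wt paraquat signals 227 to 268 against 290 to 482 in wt sham. Without wt sham 2, the brightest of these, the difference was 0.71 (adjusted p = 0.140), and without KO sham 3 it was 0.76 (adjusted p = 0.165).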

How the results depend on the processing

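Of 624 recomputed changes of the 6 genes, 600 kept their direction and their side of the threshold, 12 lost a call, 8 gained one and 4 turned sign. The paraquat rises of S100a8, S100a9, S100a7a and Defb3 kept direction and call in both genotypes under all 21 alternatives. The sign turned in uncalled differences: Defb3's difference of responses was -0.03 without wt sham 2 and KO paraquat 3 together and -0.17 to 0.35 with 1 array left out, and S100a7a in KO over wt in sham was -0.05 to 0.29. Genes of the 6 called between the sham groups numbered 0 from the 6 arrays compared, 1 without wt sham 2 and KO paraquat 3 together, and 1 to 3 with 1 array left out, against 2. For the difference of responses the number was 1 (Lcn2) after the filter on dim genes and 0 to 1 with 1 array left out, against 0. Over all genes, calls between the sham groups numbered 976 from the 6 arrays compared, 1360 without both arrays and 1418 to 2363 with 1 left out, against 2273. Under paraquat they numbered 222 after the filter, 231 with 16 added, 223 with a variance trend, 3 from the 6 arrays, 44 without both arrays and 30 to 171 with 1 left out, against 122. For the difference of responses they numbered 894 after the filter, 882 with 16 added, 783 with a variance trend, 268 without both arrays and 250 to 700 with 1 left out, against 508. Fits with fewer arrays or genes differ by construction, and the cause was otherwise not tested. Rescaling moved the median gene by at most 0.0504 on the log2 scale.

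The replicate number gave no clear sign of pairing. Same-numbered arrays correlated at -0.073 to 0.09 in their deviations from the group means. In 16 of 36 cases an array correlated best with its own number. Deviations within a group of 3 are tied to each other, so this check cannot show that pairing was absent. With the replicate block, 5805 genes were called for paraquat in KO, 6250 in wt, 2014 between the sham groups, 117 under paraquat and 439 for the difference of responses, and of the 6 genes 4, 5, 2, 0 and 0. The block changed 1 call of the 6 genes, Lcn2 in wt (adjusted p = 0.0430), which also passed after the filter on dim genes (adjusted p = 0.0439). Signals near the array medians limit what can be seen in Saa3 and in Defb3 of sham cultures.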

Other observations

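Several genes upstream of this defence differed between genotypes in sham cultures, and were picked here after their values were seen. Of 24 cytokine and receptor genes 5 were higher in KO sham and 1 lower (Il17rc). Of 21 factor and adaptor genes 1 was higher (Stat3) and 6 lower (Cebpb, Fos, Klf4, Rela, Nfkb2 and Hif1a). Over all genes 4.58% were higher and 5.67% lower. For the difference of responses 3 of the 24 were lower, and 2.29% of all genes passed in either direction. The interleukin-6 receptor gene Il6ra (log2 0.49 ± 0.09, SE, adjusted p = 0.00289) and the interleukin-22 receptor gene Il22ra1 (0.53 ± 0.11, adjusted p = 0.00742) were higher in KO sham than in wt sham. Il22ra1 had 193, 250 and 254 in KO sham against 171, 154 and 153 in wt sham, and 277, 252 and 231 in KO paraquat against 291, 279 and 293 in wt paraquat. The paraquat responses of Il22ra1 differed (log2 -0.72 ± 0.16, adjusted p = 0.0305), as did those of the shared receptor chain gene Il6st (-0.54 ± 0.11, adjusted p = 0.0278). Tnf was also higher in KO sham (0.82 ± 0.17, adjusted p = 0.00724) and fell under paraquat by 1.35 in KO and by 1.07 in wt on the log2 scale. Cebpb, a C/EBP factor, was lower in KO sham (-0.68 ± 0.11, adjusted p = 0.00198) and rose under paraquat in both genotypes (1.12 in KO and 0.65 in wt).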
